A study of Mus musculus with 50 samples.

Results

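The 10 genes described here are the sirtuins Sirt1 to Sirt7 and 3 further genes that make or consume NAD, Nampt, Cd38 and Parp1. They were chosen by symbol, with no measured value in the rule, and are 10 of the 24984 genes counted in every RNA-seq library of the series. RNA was measured in 38 libraries of 10 groups. In the untreated series, kidney and liver came from C57BL/6 mice aged 2.5 months (young) or 23-25 months (old), with 4 libraries per tissue and age. In the treated series, kidney and liver of C57BL/6 mice aged 20-21 months that had received DMSO or 3C gave 4 libraries per tissue and treatment, and skin fibroblasts of P9 C57BL/6 mice treated with DMSO or 3C gave 3 libraries per treatment. The labels do not say what 3C and P9 stand for, and the study's methods describe female animals for the young and old groups. ATAC-seq, which marks open chromatin by where a transposase can cut, was run on kidney and liver of the untreated young and old mice with 3 libraries per tissue and age. Bulk tissue was measured, so more RNA per cell and more cells of a type cannot be told apart. Nothing in the labels says which libraries share an animal, and where replicates are technical the p-values describe only the spread between these libraries.

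NAD is a redox cofactor that is also broken down as a substrate. Sirtuins use it to remove acetyl and other acyl groups from proteins, PARP1 uses it to build poly(ADP-ribose) at DNA breaks, and CD38 hydrolyses it at the cell surface and inside immune cells. Each of these reactions releases nicotinamide, which NAMPT, the rate-limiting enzyme of the salvage route, turns back towards NAD. SIRT1, SIRT6 and SIRT7 are mainly nuclear, SIRT2 is mainly cytosolic, and SIRT3, SIRT4 and SIRT5 are mainly mitochondrial, in tissues such as kidney tubule and liver that are rich in mitochondria.

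Gene totals lay between 14238228 and 43704147 reads per RNA library, and every member had at least 16 reads in every library and was tested in every comparison. The labelled tissues carried their defining markers. The summed level of 7 kidney tubule markers was 9777 CPM (gene counts scaled to a common library total) or more in every kidney library and 22.3 CPM or less in every liver library, and the hepatocyte markers reached at least 97990 CPM in every liver library. The library old kidney replicate 2 stood apart from the other kidney libraries of its series, with 2738 CPM of hepatocyte markers against 143.9 to 253.1 CPM, and 1 liver library given 3C held the 22.3 CPM of kidney tubule markers. The untreated and treated series were tallied differently by their authors, with reads that mapped to several places recorded in the first only, so levels are compared within a series.

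The promoters on which the accessibility results below turn are shown here. RefSeq promoter entries on GRCm38.p6 matched all 10 members, and the 250 bases before the start site are printed for Nampt, for both RefSeq starts of Sirt3 and for Cd38. Capitals mark matches on either strand to a GC box, searched as GGGCGG, an E box, searched as CACGTG, or the CCAAT box, searched by those letters. The AP-1 site was searched as TGANTCA. The TATA box was searched as TATAAA. Overlapping matches count separately.
Nampt, chr12:32820085-32820334, plus strand: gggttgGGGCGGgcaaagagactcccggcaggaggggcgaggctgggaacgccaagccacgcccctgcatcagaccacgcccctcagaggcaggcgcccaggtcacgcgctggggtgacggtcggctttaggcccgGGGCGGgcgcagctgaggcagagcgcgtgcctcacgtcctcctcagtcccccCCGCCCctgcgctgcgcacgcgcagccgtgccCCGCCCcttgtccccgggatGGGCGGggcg
Sirt3 upstream start, chr7:140882310-140882559, minus strand: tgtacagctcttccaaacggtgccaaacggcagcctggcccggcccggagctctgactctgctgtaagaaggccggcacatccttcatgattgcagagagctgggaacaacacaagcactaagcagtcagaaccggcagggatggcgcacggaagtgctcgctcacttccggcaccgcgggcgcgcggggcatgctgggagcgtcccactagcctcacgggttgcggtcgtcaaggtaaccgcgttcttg
Sirt3 downstream start, chr7:140881870-140882119, minus strand: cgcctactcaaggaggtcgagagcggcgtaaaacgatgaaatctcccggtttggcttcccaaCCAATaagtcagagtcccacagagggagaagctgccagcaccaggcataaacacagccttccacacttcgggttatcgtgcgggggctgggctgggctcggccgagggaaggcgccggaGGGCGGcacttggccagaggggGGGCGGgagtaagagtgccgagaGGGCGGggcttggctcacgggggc
Cd38, chr5:43868559-43868808, plus strand: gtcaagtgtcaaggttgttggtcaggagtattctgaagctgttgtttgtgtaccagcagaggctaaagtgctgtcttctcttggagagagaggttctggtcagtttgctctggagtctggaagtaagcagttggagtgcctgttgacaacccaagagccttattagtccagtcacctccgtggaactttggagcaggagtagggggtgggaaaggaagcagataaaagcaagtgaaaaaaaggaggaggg

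The 4 sequences differ in CpG content. The Nampt stretch held 27 CpG dinucleotides and 5 GC boxes, whereas the Cd38 stretch held 1 CpG and none of the 5 motifs. Among 32851 RefSeq promoters, 91.4% had fewer CpGs than Nampt and 7.9% had fewer than Cd38, with a median of 6. The upstream Sirt3 start had 21 CpGs and no motif match, and the downstream start had 18 CpGs, 3 GC boxes and 1 CCAAT box. The 10 members had 12 promoter entries, and 8 members had a GC box in at least 1 entry. The upstream entries of Sirt3 and Sirt6 had none. Sirt4 and Cd38 had none in their single entries, and that of Sirt4 is for a start at 115484297, downstream of the start at 115484484 used for ATAC-seq. Counted by entry, 32.7% of all promoters held one. The Sirt1 stretch had the highest CpG count of the members, with 39 CpGs, 6 GC boxes and 2 E boxes, an element found in 6.02% of promoters. None of the members' stretches held an AP-1 site or a TATA box, which occurred in 6.75% and 12.4% of promoters, and a CCAAT box occurred in 33.8%.

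To compare genes with each other, CPM was divided by exon length (CPM per kb). Sirt3, the main mitochondrial deacetylase, had the highest mean level per kb of the 10 genes in every liver group and in 3 of the 4 kidney groups. Its mean was 88.8 CPM per kb in young liver and 46.1 in young kidney. In old kidney its mean of 37.3 CPM per kb lay next to 39.3 for Sirt2, a cytosolic deacetylase that also acts on tubulin, and the libraries of the 2 genes overlapped. In skin fibroblasts the order was different, with Sirt2 first at 41.6 CPM per kb under DMSO, Sirt7 next at 18.6, and Sirt3 at 6.10. Sirt1 was last in fibroblasts at 1.16 CPM per kb, Cd38 was last in young kidney at 2.35, and Sirt6, a chromatin deacetylase, was last in young liver at 1.36. As a share of the summed level per kb of the 7 sirtuins, Sirt3 made up 49.6% in young liver and 39.5% in young kidney, and Sirt2 21.1% and 30.3%. In the DMSO groups, Sirt3 made up 34.6% in liver, 27.7% in kidney and 7.17% in fibroblasts. Sirt2 made up 20.9%, 24.7% and 48.8% in these groups.

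**Figure D1:**
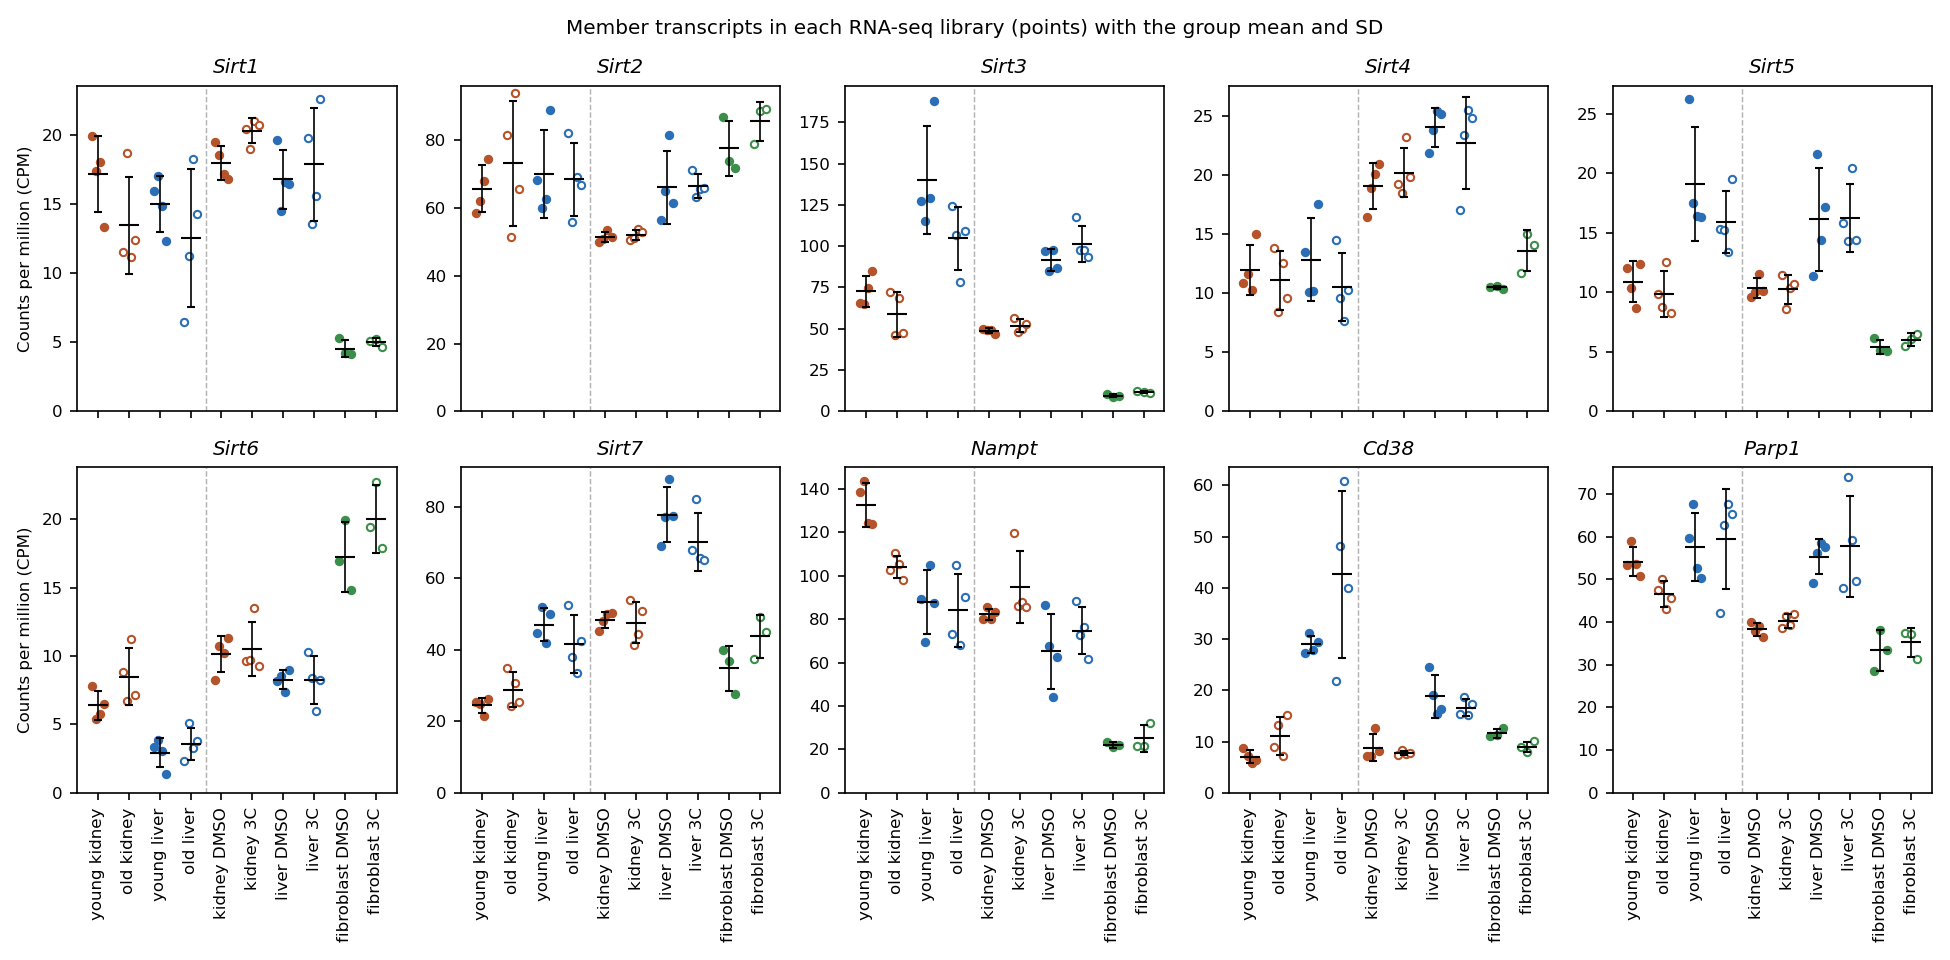
CPM of each member in every RNA-seq library (y axis, from 0) by group (x axis), with the mean (horizontal bar) and SD (error bar), and a dashed line between the untreated and treated series. Sirt3, Nampt and Sirt1 are low in all 6 fibroblast libraries, Sirt6 is highest there, and Cd38 is higher in liver than in kidney in both series.

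The first comparison asked how the members differ between liver and kidney of young mice. Of the 10 members, 4 were higher in liver, 2 were higher in kidney and 4 did not pass the test (edgeR quasi-likelihood test, adjusted p under 0.05). The tissues differ in most genes, with 65.4% of all 14057 genes tested past the same threshold and 60.4% with libraries that did not overlap, so 6 of 10 members by either count is near the background. The median log2 difference was 0.11 over the members and -0.08 over all genes tested.

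Cd38 showed the widest tissue difference of the members in young mice. It stood at 27.4, 31.1, 27.9 and 29.5 CPM in the 4 young livers and at 8.77, 7.27, 5.85 and 6.37 CPM in the 4 young kidneys. Every liver library lay above every kidney library, with a log2 difference of 2.05 ± 0.16 (SE, edgeR adjusted p = 3.65e-07). All 12 macrophage markers also passed the test in the same direction, with a summed level of 1231 to 1865 CPM in young liver and 132.2 to 161.6 CPM in young kidney, and their part in the Cd38 difference was not tested.

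Sirt3, Sirt5 and Sirt7 were higher in young liver. Sirt3 was at 127, 115, 129 and 188 CPM in liver and at 65.8, 65.2, 74.7 and 84.9 CPM in kidney, a log2 difference of 0.96 ± 0.17 (SE, edgeR adjusted p = 0.000388). Sirt7, a nucleolar deacetylase, had the same log2 difference of 0.96 ± 0.13 with a smaller spread (edgeR adjusted p = 3.94e-05), at 41.8 to 52.0 CPM in liver and 21.5 to 26.2 CPM in kidney. Sirt5, which removes succinyl and malonyl groups in mitochondria, was at 26.2, 17.5, 16.4 and 16.4 CPM in liver and at 12.1, 10.3, 8.66 and 12.4 CPM in kidney. Its libraries did not overlap, and its log2 difference was 0.83 ± 0.20 (SE, edgeR adjusted p = 0.00332), but with the trend over transcript length and GC content taken out the value was 0.39 and the adjusted p was 0.103.

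Sirt6 and Nampt were lower in young liver than in young kidney. Sirt6 was at 3.38, 3.84, 3.04 and 1.41 CPM in liver and at 7.84, 5.40, 5.79 and 6.52 CPM in kidney. No libraries overlapped, and the log2 difference was -1.11 ± 0.29 (SE, edgeR adjusted p = 0.00584). Nampt was at 89.3, 69.5, 105.1 and 87.6 CPM in liver and at 138, 144, 124 and 124 CPM in kidney, with a log2 difference of -0.58 ± 0.14 (SE, edgeR adjusted p = 0.00290). Sirt1, Sirt2, Sirt4 and Parp1 overlapped between the tissues, with log2 differences of -0.17, 0.11, 0.12 and 0.10 that did not pass. With the length and GC trend taken out, Parp1 was at 0.65 and passed (adjusted p = 7.71e-05), and Sirt4 turned to -0.11. That correction moved the median of all genes tested from -0.08 to 0.09.

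The same comparison could be made in older mice, between liver and kidney of the DMSO groups. Here 7 members were higher in liver and none was lower past the threshold, against 71.9% of 14981 genes called in all and 67.6% with libraries that did not overlap (6 members). Cd38 (1.08 ± 0.21), Sirt3 (0.89 ± 0.08), Sirt7 (0.67 ± 0.09) and Sirt5 (0.62 ± 0.18, log2 ± SE) were again higher in liver, with edgeR adjusted p of 0.000581, 1.34e-06, 3.47e-05 and 0.00732. Sirt3 was at 97.2, 85.0, 98.0 and 86.9 CPM in DMSO liver and at 50.1, 49.2, 49.6 and 46.6 CPM in DMSO kidney. Parp1 passed here at 0.51 ± 0.08 (edgeR adjusted p = 0.000158, and 1.01 with the length and GC trend taken out), with 49.2 to 58.4 CPM in liver and 36.4 to 40.0 CPM in kidney. Sirt2 at 0.34 ± 0.11 and Sirt4, a mitochondrial ADP-ribosyltransferase and lipoamidase, at 0.31 ± 0.11 passed as well, with edgeR adjusted p of 0.0140 and 0.0187. Without the library DMSO kidney replicate 1, Sirt4 was at 0.25 with an edgeR adjusted p of 0.0587, and Sirt5 was at 0.37 with an edgeR adjusted p of 0.0739 after correction for length and GC content. DMSO kidney replicate 3 had the highest Cd38 level of the kidneys, 12.6 CPM against 7.17 to 8.21, and also the highest sum of B and plasma cell markers, 277.2 CPM against 88.4 to 104.9. Of 12 macrophage markers 8 were higher and 2 lower in DMSO liver, and their part in the Cd38 difference was not tested.

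The values of Sirt6 and Nampt were nearer 0 in the DMSO groups. Sirt6 was at -0.31 ± 0.14 and Nampt at -0.35 ± 0.16 on the log2 scale (edgeR adjusted p of 0.0720 and 0.0717), and both overlapped between tissues. Nampt was at 86.5, 67.5, 44.1 and 62.4 CPM in DMSO liver and at 80.2, 85.5, 80.0 and 83.3 CPM in DMSO kidney, so that 1 liver library was above all kidneys. Without that library, DMSO liver replicate 1, the Nampt difference was -0.49 with an adjusted p of 0.00627, and it also passed with the replicate number as a block (-0.39, adjusted p = 0.0278) and with the length and GC trend taken out (-0.31, adjusted p = 0.0337). For Sirt6, the value was -0.40 with an adjusted p of 0.0279 without DMSO kidney replicate 1, and it was 0.03, on the other side of 0, with the length and GC trend taken out. That correction moved the median of all genes tested from -0.07 to 0.11. With the fold change of more than 2 that the study required, 2 members passed in young mice (Cd38 and Sirt6) and 1 in the DMSO groups (Cd38), against 42.6% and 42.3% of genes. Age, treatment and the processing of the reads all differ between the 2 series, and their tissue differences were not tested against each other.

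**Figure D2:**
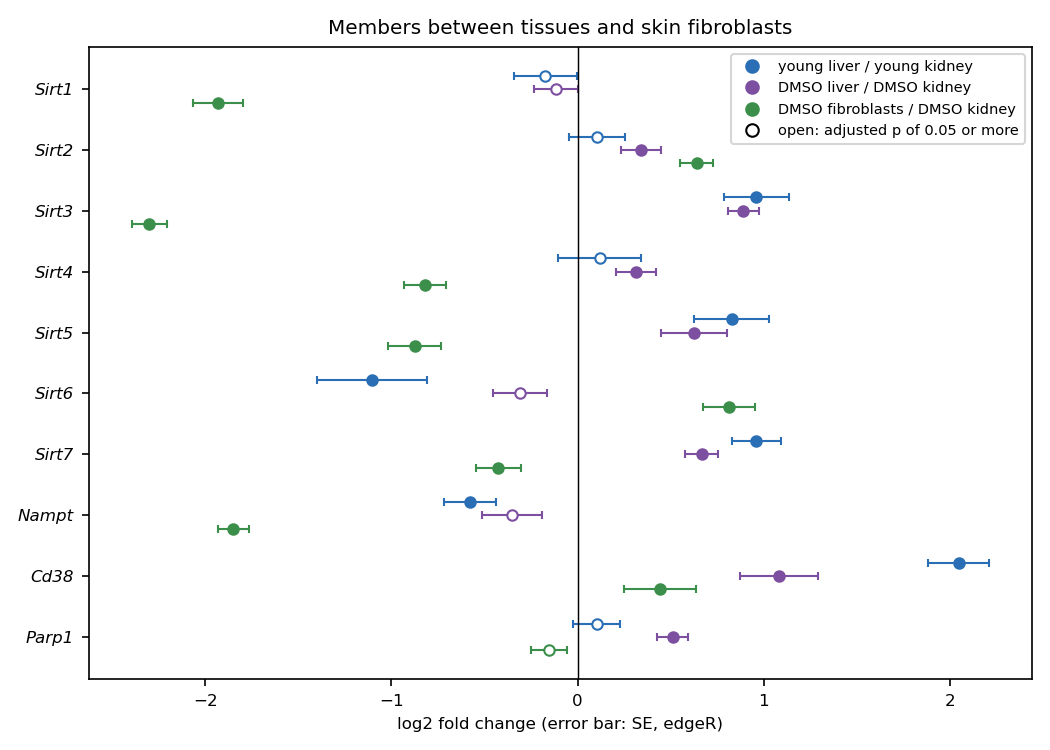
Log2 fold change (x axis) with its SE (bar) for each member (y axis) between liver and kidney of young mice, between liver and kidney of DMSO mice, and between DMSO fibroblasts and DMSO kidney. Filled points have an edgeR adjusted p under 0.05. Sirt3, Sirt5, Sirt7 and Cd38 lie to the right of 0 in both liver comparisons.

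Other genes of NAD metabolism also differed between liver and kidney. Of 8 tested genes for NAD synthesis from tryptophan, 7 were higher in liver and 1 was lower, in young mice and in the DMSO groups alike, with a median log2 difference of 2.68 and 2.65. Tdo2, which opens the tryptophan route, was at 1755 ± 302.6 CPM (SD, n = 4) in young liver, while the 4 young kidneys had between 0 and 5 reads. All 3 genes of nicotinamide clearance were higher in liver in both series. Nnmt, which methylates nicotinamide, was at 149 ± 49.8 CPM in young liver and 2.97 ± 1.06 CPM in young kidney (SD, n = 4), and the oxidases Aox1 and Aox3 had log2 differences of 6.35 ± 0.30 and 8.66 ± 0.20 (SE, edgeR adjusted p of 2.53e-09 and 3.48e-11).

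Among 15 tested NAD-cleaving and PARP family genes other than the members, 7 were higher in young liver and 4 in young kidney. Bst1, the close relative of Cd38, went the other way from Cd38, at 0.65 ± 0.35 CPM in young liver and 15.5 ± 3.62 CPM in young kidney (SD, n = 4), a log2 difference of -4.56 ± 0.38 (SE, edgeR adjusted p = 5.09e-07). Parp8 was at -3.45 ± 0.21 in DMSO liver against DMSO kidney (edgeR adjusted p = 2.14e-08). Of 11 tested sirtuin substrates, 4 were higher and 4 lower in young liver. Acss1, a mitochondrial acetyl-CoA synthetase that SIRT3 deacetylates, was at 498.3 CPM on average in young kidney and 0.52 CPM in young liver, opposite to Sirt3 itself. Ppargc1a, the coactivator that SIRT1 deacetylates, was also lower in young liver, by -3.04 ± 0.30 on the log2 scale (SE, edgeR adjusted p = 2.35e-06).

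The remaining NAD lists split as follows between young liver and young kidney. Of 5 salvage and nicotinic acid genes 2 were higher and 2 lower, of 4 genes for NAD kinases and mitochondrial NAD 2 were higher and 2 lower, of 6 PARP1 partners and ADP-ribose removal genes 1 was higher and 3 lower, and of 3 SIRT1 regulators 1 was higher. In the DMSO groups the same lists gave 3 and 0, 2 and 2, 1 and 1, and 1 and 1, the NAD-cleaving and PARP family gave 7 and 4 of 16, and the sirtuin substrates 6 and 3 of 11.

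Skin fibroblasts were then set against the organs, a comparison added after the data were seen, with DMSO in all groups. Against kidney, 3 members were higher in fibroblasts, 6 were lower and Parp1 did not pass, with 83.3% of 15437 genes called in all. Against liver, 1 member was higher, 8 were lower and Sirt2 did not pass, with 79.8% of 14500 genes called. No age in months is given for the fibroblast samples, so the part of donor age in these differences was not tested.

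Sirt3 showed the widest difference of the members, at 10.5, 8.90 and 9.44 CPM in the 3 fibroblast libraries against 46.6 to 50.1 CPM in kidney and 85.0 to 98.0 CPM in liver. The log2 differences were -2.30 ± 0.10 and -3.24 ± 0.14 (SE, edgeR adjusted p of 4.71e-10 and 2.40e-10). Sirt1, the nuclear deacetylase of transcription factors, was at 5.29, 4.24 and 4.12 CPM in fibroblasts, below all kidney (16.8 to 19.5 CPM) and liver (14.5 to 19.6 CPM) libraries. Its log2 difference was -1.93 ± 0.13 against kidney and -1.87 ± 0.19 against liver (edgeR adjusted p of 4.68e-08 and 1.21e-06). Nampt was at 20.9 to 23.4 CPM in fibroblasts, with -1.85 ± 0.09 and -1.55 ± 0.20 (edgeR adjusted p of 1.12e-09 and 1.15e-05).

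Sirt6 was higher in fibroblasts than in both organs. It was at 16.99, 19.97 and 14.8 CPM in fibroblasts, at 8.29 to 11.3 CPM in kidney and at 7.34 to 8.99 CPM in liver, with log2 differences of 0.82 ± 0.14 and 1.07 ± 0.17 (edgeR adjusted p of 0.000172 and 6.39e-05). Sirt2 was higher than in kidney by 0.64 ± 0.09 (edgeR adjusted p = 3.04e-05). Against liver Sirt2 was at 0.25 ± 0.14 (edgeR adjusted p = 0.129), and without DMSO liver replicate 3 it was at 0.35 with an adjusted p of 0.0219. Sirt4 and Sirt5 were lower than in kidney by -0.82 ± 0.11 and -0.88 ± 0.14, and lower than in liver by -1.18 ± 0.14 and -1.55 ± 0.23.

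Several members depended on the correction for length and GC content in the fibroblast comparisons, which moved the median of all genes from -0.13 to 0.43 against kidney and from -0.02 to 0.35 against liver. Sirt4 against kidney went to -0.23 and lost its call (adjusted p = 0.0569), and Sirt2 against liver went from 0.25 to 0.85 and gained one (adjusted p = 1.67e-05). Sirt7 was at -0.43 ± 0.12 against kidney (edgeR adjusted p = 0.00566) but at 0.00 with the length and GC trend taken out, and at -1.14 ± 0.15 against liver. Cd38 was at 0.44 ± 0.19 against kidney (edgeR adjusted p = 0.0489), a call lost in 9 of 13 alternatives, and its value against liver of -0.69 ± 0.19 (edgeR adjusted p = 0.00441) turned to 0.09 with that trend taken out. Parp1 was at -0.16 ± 0.10 against kidney and turned to 0.55 (adjusted p = 4.97e-05) with that trend taken out, and without DMSO fibroblast replicate 2 it was at -0.25 (adjusted p = 0.0277). Against liver Parp1 was at -0.72 ± 0.13 (edgeR adjusted p = 0.000288).

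In the same comparison with kidney, 7 of 8 tested genes of the tryptophan route and all 10 tested sirtuin substrates were lower in fibroblasts, and 5 of 6 salvage genes were lower. Kmo and Haao, enzymes of that route, were at 0.03 and 0.10 CPM on average in fibroblasts and at 78.6 and 97.2 CPM in kidney. Of 16 NAD-cleaving and PARP family genes 1 was higher and 10 were lower, of 4 genes for NAD kinases and mitochondrial NAD 3 were lower, of 6 PARP1 partners and ADP-ribose removal genes 1 was higher and 2 were lower, and of 3 nicotinamide clearance genes and 3 SIRT1 regulators 2 each were higher and 1 each lower. Parp3, an ADP-ribosyltransferase of DNA repair and the higher one of its family, was higher in fibroblasts by 2.36 ± 0.12, and Hic1, a repressor of Sirt1, was higher by 2.65 ± 0.12 (log2 ± SE, edgeR adjusted p of 2.53e-09 and 9.12e-10). Nnmt was higher by 5.89 ± 0.15 (edgeR adjusted p = 9.01e-12).

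The study's main question for the untreated mice was what changes with age in kidney and liver. In kidney, none of the 10 members passed the test between old and young mice, while 11.5% of 14495 genes did. Under 10 of the 14 alternatives run, the count stayed at 0, while it was 1 with DESeq2, 1 or 2 without old kidney replicate 3 or 2, and 4 with the trend over transcript length and GC content taken out (Sirt3, Sirt5 and Parp1 lower and Cd38 higher). The share of all genes called moved too, to 19.0% with DESeq2, 9.76% and 23.7% without old kidney replicate 3 and 2, and 24.4% with that trend taken out. Taking that trend out also moved the median log2 difference of all genes tested from 0.02 to -0.10. In the edgeR fit 4 members had an unadjusted p under 0.05 (Nampt, Cd38, Sirt6 and Sirt7), against 30.1% of all genes tested, so that 4 of 10 is not far from the background. The median log2 difference was -0.07 over the members and 0.02 over all genes tested.

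Nampt and Parp1 were the members whose old and young kidney libraries did not overlap, 2 of 10 against 19.6% of all genes tested. Nampt was at 138, 144, 124 and 124 CPM in young kidney and at 102, 110, 105 and 97.9 CPM in old kidney. All 4 old libraries were below all 4 young ones, with a log2 difference of -0.29 ± 0.10 (SE, edgeR adjusted p = 0.0806). Without old kidney replicate 2, the library with hepatocyte transcripts, the value was -0.33 and the adjusted p 0.0415, and DESeq2 gave -0.31 with an adjusted p of 0.00953. Parp1 was at 53.3, 58.9, 53.5 and 50.8 CPM in young kidney and at 47.4, 50.1, 43.0 and 45.5 CPM in old kidney, a log2 difference of -0.16 ± 0.10 (edgeR adjusted p = 0.316).

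Sirt1 was at 19.9, 17.4, 18.0 and 13.4 CPM in young kidney and at 11.6, 18.7, 11.2 and 12.4 CPM in old kidney. The second old library was above 3 of the young ones and the other old libraries were below all young ones. Its log2 difference was -0.28 ± 0.20 (edgeR adjusted p = 0.378), and without old kidney replicate 2 it was -0.50 with an adjusted p of 0.0454. Sirt6 and Sirt7 had positive values of 0.46 ± 0.20 and 0.29 ± 0.13 (edgeR adjusted p of 0.144 and 0.152). The values of Sirt7 and Sirt2 (0.20 ± 0.17) turned to -0.11 and -0.16 with the length and GC trend taken out. That correction also moved the median of all genes tested, from 0.02 to -0.10. Sirt3, Sirt4 and Sirt5 were at -0.26, -0.06 and -0.09, each with overlapping libraries and an adjusted p of 0.298 or more. With that trend taken out, Sirt3 was at -0.65 (adjusted p = 0.00189), Sirt5 at -0.43 (adjusted p = 0.0452) and Sirt4 at -0.38 (adjusted p = 0.0788), while Sirt6 was at 0.10 and Nampt at -0.14 (adjusted p of 0.697 and 0.417).

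Cd38 was at 8.77, 7.27, 5.85 and 6.37 CPM in young kidney and at 8.88, 13.1, 7.17 and 15.2 CPM in old kidney. Old replicates 2 and 4 were clearly above all young libraries, replicate 1 was just above the highest of them, and replicate 3 lay within their range. The log2 difference was 0.73 ± 0.26 (SE, edgeR adjusted p = 0.101), and without old kidney replicate 3 it was 0.90 with an adjusted p of 0.0372. Markers of immune cells moved in the same samples. All 10 tested macrophage markers, all 7 tested B and plasma cell markers and 5 of 7 T and NK cell markers were higher in old kidney. The summed macrophage level rose from 132.2-161.6 to 625.3-1210 CPM and the summed B and plasma cell level from 22.5-26.0 to 304.7-440.4 CPM. Old replicate 4, which had the highest Cd38 level, also had the highest macrophage sum, 1210 CPM, and T and NK cell sum, 27.3 CPM. Its B and plasma cell sum, 304.7 CPM, was the lowest of the old kidneys. The part of these markers in the Cd38 value was not tested.

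**Figure D3:**
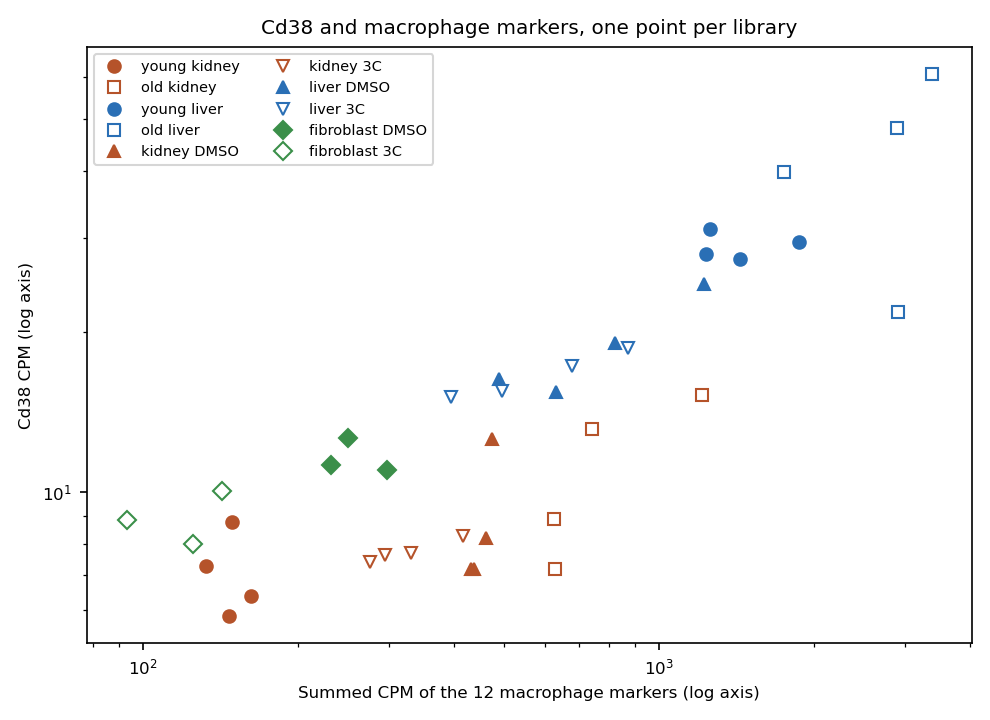
Cd38 (y axis, CPM, log axis) against the summed CPM of 12 macrophage markers (x axis, log axis) in each of the 38 RNA-seq libraries. Livers lie mostly above kidneys and fibroblasts and further to the right, and old liver replicate 1 has 21.8 CPM of Cd38 at 2909 CPM of macrophage markers.

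In liver, again no member passed between old and young mice, with 2.46% of 12537 genes called, and no member had libraries that did not overlap, against 10.1% of genes. None had an unadjusted p under 0.05, against 14.7% of genes, and the median log2 difference was -0.10 over the members and 0.00 over all genes. Cd38 was at 27.4, 31.1, 27.9 and 29.5 CPM in young liver and at 21.8, 48.1, 60.8 and 39.9 CPM in old liver. Of the old livers 3 were above and 1 was below all young livers. Its log2 difference was 0.58 ± 0.27 (SE, edgeR adjusted p = 0.347), and without old liver replicate 1 it was 0.80 with an adjusted p of 0.0256, in a fit that called 4.63% of genes. The macrophage sum was 1231 to 1865 CPM in young and 1748 to 3376 CPM in old liver, with 3 of 12 markers higher past the test, and 4 of 6 B and plasma cell markers were higher. Sirt3 was at 127, 115, 129 and 188 CPM in young and 124.5, 107, 78.5 and 109 CPM in old liver, a log2 difference of -0.40 ± 0.20 (edgeR adjusted p = 0.411). The other members had values between -0.27 and 0.32 and an adjusted p of 0.697 or more, and Nampt was at -0.05 ± 0.19.

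Whether age acted differently in the 2 tissues was tested as an interaction. No member passed, with 1.72% of 15036 genes called. The widest value was that of Sirt7, whose age effect on the log2 scale was lower in liver than in kidney by -0.42 ± 0.22 (SE, edgeR adjusted p = 0.412). For Nampt the age effect was 0.29 ± 0.21 higher in liver and for Cd38 it was -0.10 ± 0.38 (edgeR adjusted p of 0.576 and 0.954).

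**Figure D4:**
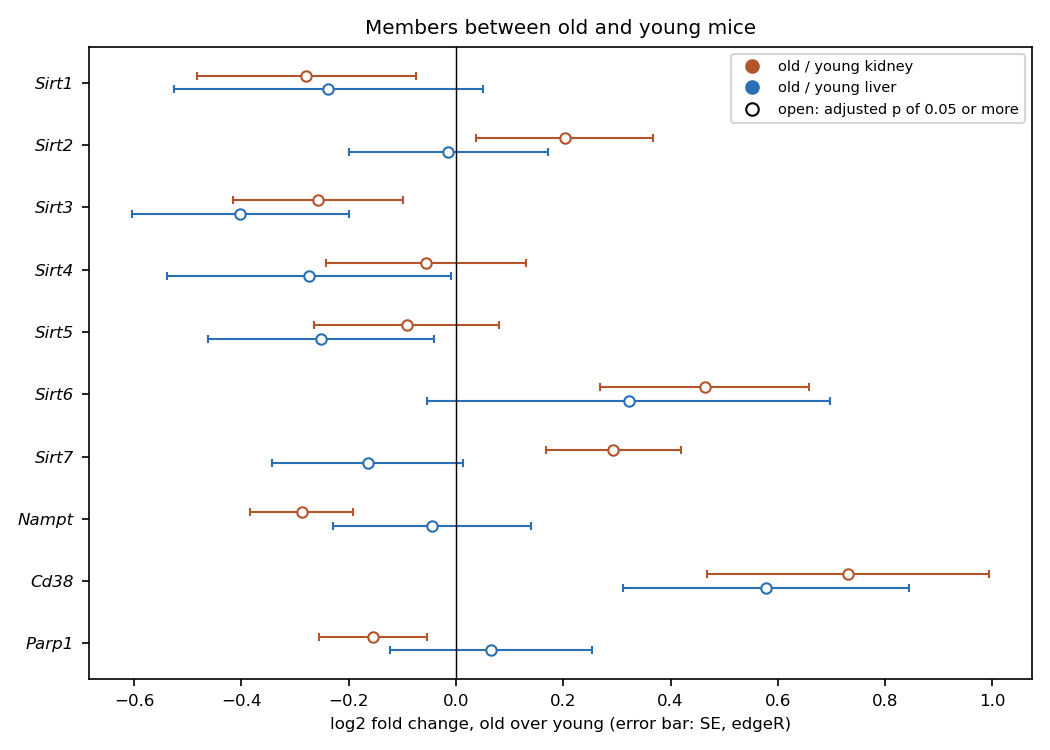
Log2 fold change of old over young mice (x axis) with its SE (bar) for each member (y axis) in kidney and liver. All points are open, which marks an edgeR adjusted p of 0.05 or more, and Cd38 has the most positive value in both tissues.

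A few genes of the NAD lists passed the test with age. In old kidney, 2 of 15 tested NAD-cleaving and PARP family genes were higher, a share near the 11.5% of all genes called, Parp3 by 0.74 ± 0.16 and Parp10 by 0.39 ± 0.11 on the log2 scale (SE, edgeR adjusted p of 0.0153 and 0.04996), and Hic1 was higher by 0.85 ± 0.21 (adjusted p = 0.0300). Parp10 lost its call in 10 of 14 alternatives, Hic1 in 6 and Parp3 in 3. Nmrk1, which phosphorylates nicotinamide riboside in a salvage route parallel to Nampt, was at 60.2 CPM on average in young and 25.7 CPM in old kidney, a log2 difference of -1.17 ± 0.18 (edgeR adjusted p = 0.00392). Nnt, the mitochondrial transhydrogenase, fell by 0.51 ± 0.09 and Acss1 by 0.76 ± 0.15 (edgeR adjusted p of 0.00630 and 0.0107). The summed kidney tubule markers were at 13140 to 15690 CPM in young and 11250 to 12570 CPM in old kidney, without overlap and with 1 of 7 markers lower past the test, and their part in these falls was not tested. Of the 4 genes for NAD kinases and mitochondrial NAD, 3 were lower, and of 5 salvage genes, 7 tryptophan route genes and 6 PARP1 partners and ADP-ribose removal genes, 1 each was lower. Of 10 sirtuin substrates 2 were lower, and none of 3 nicotinamide clearance genes passed.

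In old liver, 1 of 15 NAD-cleaving and PARP family genes and 1 of 3 nicotinamide clearance genes were higher. These were Parp3, from 34.8 to 62.0 CPM on average (log2 difference 0.85 ± 0.15, edgeR adjusted p = 0.0178), and Nnmt, from 149 ± 49.8 to 548 ± 396 CPM (SD, n = 4, log2 difference 1.90 ± 0.44, edgeR adjusted p = 0.0483). Parp3 lost its call in 4 of 14 alternatives and Nnmt in 8. No gene of the other 6 NAD lists passed in liver. In the interaction test 1 gene of the lists passed, Tiparp, a mono-ADP-ribosyltransferase induced by the aryl hydrocarbon receptor, which averaged 28.5 CPM in young and 20.7 CPM in old kidney and 11.6 CPM in young and 22.1 CPM in old liver. Its age effect was 1.39 ± 0.33 higher in liver (log2 ± SE, edgeR adjusted p = 0.0412), a call lost in 15 of 22 alternatives.

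The 3C treatment was compared with DMSO in fibroblasts, kidney and liver. No member passed in any of them. In fibroblasts 4.22% of 13449 genes were called, and 3 members had libraries that did not overlap, against 25.7% of genes. Sirt3 was at 10.5, 8.90 and 9.44 CPM with DMSO and 12.3, 11.5 and 10.9 CPM with 3C (0.28 ± 0.14, edgeR adjusted p = 0.303). Sirt4 was at 10.5, 10.6 and 10.3 CPM with DMSO and 11.7, 15.0 and 14.1 CPM with 3C (0.39 ± 0.14, edgeR adjusted p = 0.162). Cd38 was at 11, 11.2 and 12.6 CPM with DMSO and 8.85, 7.998 and 10.1 CPM with 3C (-0.36 ± 0.15, edgeR adjusted p = 0.208). All 7 sirtuins had a value above 0, with a median log2 difference of 0.22 against 0.01 over all genes. The macrophage markers of these fibroblast libraries summed to 231.3-297.6 CPM with DMSO and 93.0-142.2 CPM with 3C, 2 of 10 lower past the test, and their part in the Cd38 value was not tested.

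In fibroblasts 5 of 15 tested NAD-cleaving and PARP family genes were higher with 3C. Parp10 went from 4.65 to 15.2 CPM on average, Parp9 from 11.6 to 26.6 and Parp14 from 4.73 to 12.2, with log2 differences of 1.70 ± 0.18, 1.21 ± 0.15 and 1.37 ± 0.17 (SE, edgeR adjusted p of 0.000871, 0.00160 and 0.00184). These are ADP-ribosyltransferases known as interferon-responsive genes. Of 2 nicotinamide clearance genes and 8 sirtuin substrates 1 each was higher, and no gene of the other 5 NAD lists passed.

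In kidney and liver of the 20-21 month old mice, 3C was followed by no call at all. Under edgeR 0.0% of 14974 genes in kidney and 0.0% of 13042 in liver passed, with 1786 and 436 genes at an unadjusted p under 0.05, and DESeq2 called 221 and 7 genes, none of them a member. In kidney 1 member, Nampt, had libraries that did not overlap, against 7.19% of genes. It was at 80.2, 85.5, 80.0 and 83.3 CPM with DMSO and at 119.6, 86.0, 88.1 and 85.8 CPM with 3C, so that 3 of the 3C libraries were within 3 CPM of the highest control. Its log2 difference was 0.18 ± 0.10 (SE, edgeR adjusted p = 0.512). The other members had values between -0.21 (Cd38) and 0.15 in kidney, and Cd38 was at 0.02 without DMSO kidney replicate 3. In liver no member had libraries that did not overlap, against 2.28% of genes, and the values lay between -0.20 (Cd38) and 0.18 (Nampt, ± 0.20 SE), with an adjusted p of 0.9996 for each. No member passed the test for a 3C effect that differs between liver and kidney, and 0.0% of 15526 genes did, with 554 at an unadjusted p under 0.05 and 0 by DESeq2.

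Chromatin accessibility was read at the start sites of the members from the peaks that the authors called in each ATAC-seq library. The value used is the highest fold enrichment over the local background of any peak within 1000 bases of the start, and it is 0 where there was no peak. In kidney 9 of 10 members had such a peak in all 6 libraries, against 54.2% of all genes, and in liver 10 of 10 had one, against 48.1% of all genes. The exception was Cd38 in 1 old kidney library. Under other ways of counting peaks the liver count was as low as 7. With 3 libraries against 3 the exact permutation test used here cannot give a p below 0.1, and no test with a lower limit was run.

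Fold enrichment did not overlap between old and young kidney at the starts of Sirt3 and Nampt, 2 of 10 members against 22.4% of genes with a peak. Nampt was at 8.89, 8.79 and 7.17 in young and at 10.6, 9.03 and 11.1 in old kidney. All 3 old libraries were above all 3 young ones (exact permutation p = 0.1, 2-sided), the smallest p the test allows and 0.5 after adjustment over the 10 members. The peak covers the CpG-rich stretch of Nampt printed above. Nampt RNA was at lower levels in every old kidney than in every young kidney, but this did not pass either (edgeR adjusted p = 0.0806). The labels do not tie the RNA libraries to those of ATAC-seq, and the relation of the 2 measures was not tested. In liver Nampt enrichment was 5.60 ± 0.82 in young and 6.402 ± 2.196 in old mice (SD, n = 3).

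At Sirt3, enrichment was 6.48, 6.24 and 5.48 in young and 7.0, 6.91 and 8.59 in old kidney (exact permutation p = 0.1). The summit of the Sirt3 peak also lay at different places. In young kidney it was 401, 444 and 408 bases downstream of the upstream start, close to the downstream start, and in old kidney it was 72, 44 and 37 bases before the upstream start. In each of the 6 kidney libraries a single peak spanned both starts. A separation of summits by at least 300 bases on average, with no overlap between ages, was found for 2.26% of 13477 genes with a peak in all 6 kidney libraries. In liver the summit was 379 to 455 bases downstream in the 3 young libraries and in 2 old ones, at 459 and 454 bases, and 11 bases before the upstream start in the third old library. This feature was noticed in the data and was given no test.

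Cd38 was the member whose enrichment did not overlap between ages in liver, 1 of 10 against 12.7% of genes with a peak. It was at 3.39, 3.04 and 3.15 in young and 4.36, 4.23 and 4.72 in old liver (exact permutation p = 0.1, adjusted p = 0.8). In kidney it was at 3.33, 3.41 and 2.84 in young and at 4.65, 3.21 and 0 in old mice. Cd38 and Sirt7 had the lowest mean enrichment of the members in both ages of kidney and of liver. Parp1 had the highest mean in kidney, at 9.71 ± 1.25 in young and 11.8 ± 2.32 in old mice (SD, n = 3), and Sirt5 had the highest in liver, at 9.13 ± 0.35 and 7.78 ± 1.48.

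**Figure D5:**
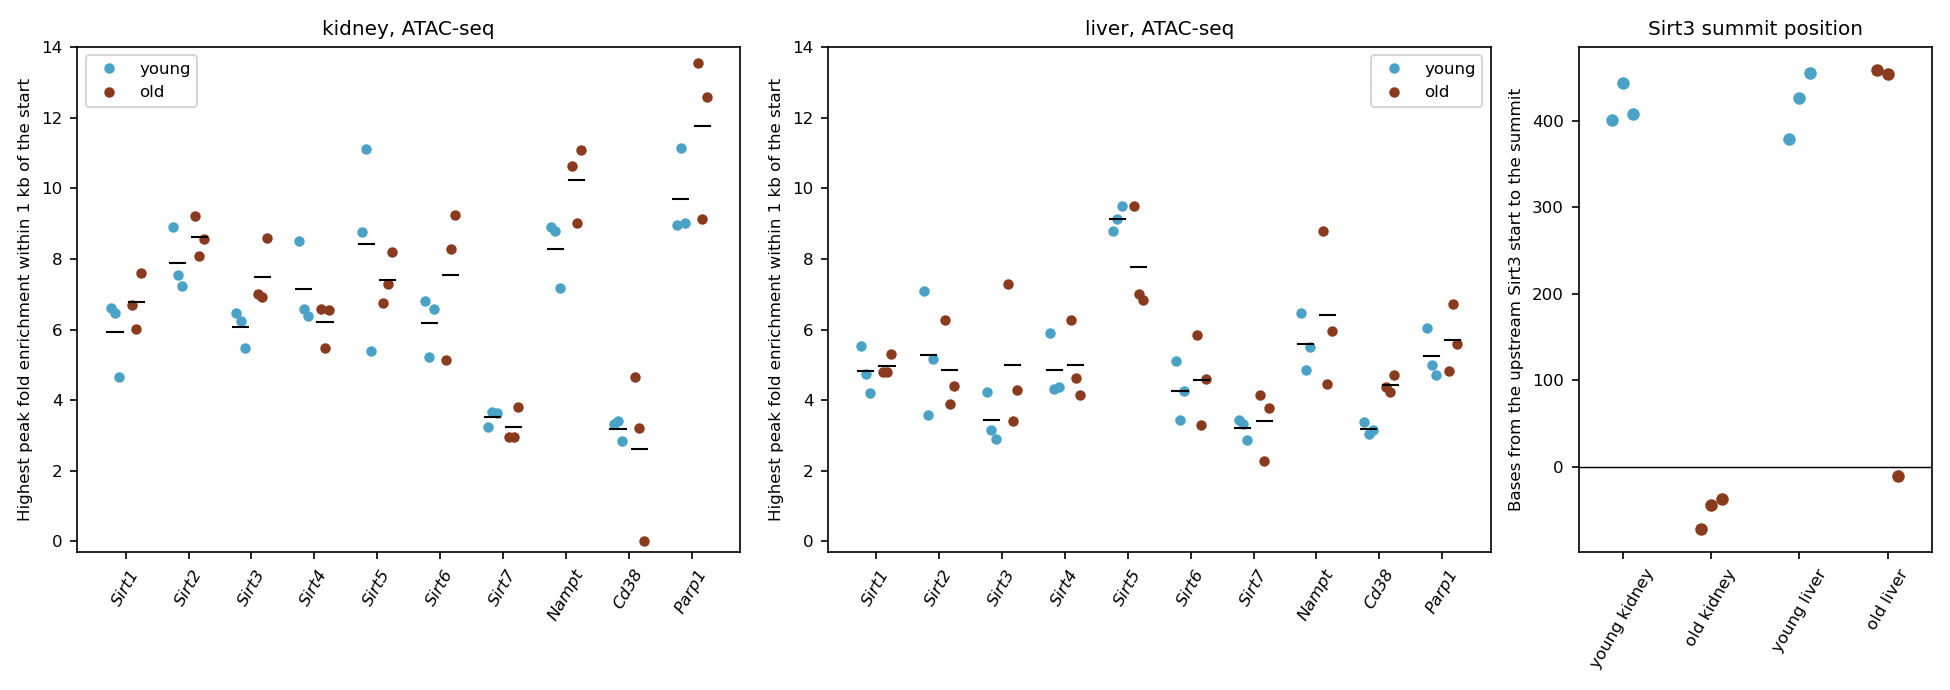
Fold enrichment of the highest ATAC-seq peak near each member's start (y axis of the left and middle plots) in young and old libraries (points, bars are means of 3), and distance of the Sirt3 summit from its upstream start in bases (y axis of the right plot, positive is downstream). Nampt and Sirt3 separate by age in kidney and Cd38 in liver, and the 3 old kidney summits of Sirt3 lie near 0 while the 3 young ones lie at 401 to 444.

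The genes whose pattern was most like each member were ranked by Pearson's r of log2 CPM over all 38 libraries among 13399 genes. Such values mostly follow the differences between tissues and series, which the libraries share, so r within groups (after the group means were taken out) is given beside it. For Sirt3 the nearest genes were Kyat3 (r = 0.99, within groups 0.77) and Phyh (0.99, 0.51), a kynurenine aminotransferase and a peroxisomal hydroxylase. For Cd38 they were Lyn (0.95, 0.80), a kinase of B and myeloid cells, and Msr1 (0.94, 0.71), a macrophage scavenger receptor. For Nampt they were Exoc6 (0.96, 0.39) and Acadm (0.96, 0.24), an enzyme of fatty acid oxidation.

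For Sirt1 the nearest genes were Epb41 (0.95, 0.69) and Myo18a (0.95, 0.61), for Sirt2 Bscl2 (0.91, 0.89) and Ube2r2 (0.89, 0.82), for Sirt4 Fam193b (0.91, 0.45) and Ccl27a (0.89, 0.67), and for Sirt5 Cdip1 (0.94, 0.57) and Marc2 (0.94, 0.52). For Sirt6 they were Ptpn23 (0.93, 0.55) and Slc27a3 (0.93, 0.31), for Sirt7 Zbtb48 (0.93, 0.56) and Rhbdd3 (0.92, 0.72), and for Parp1 Irak1 (0.91, 0.76) and Pcyt1a (0.90, 0.61). Among the members themselves, the highest r was that of Sirt3 with Sirt5 (0.89, within groups 0.14) and the lowest that of Sirt3 with Sirt6 (-0.80, within groups -0.20). Within groups, the highest r was that of Sirt2 with Sirt3 (0.68) and the lowest that of Sirt1 with Sirt4 (-0.68).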

How the data were processed

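RNA was measured in 38 libraries and open chromatin in 12. Trimming was done by the authors with Trimmomatic 0.39 and alignment to mm10 with HISAT2 2.2.1, and they deposited a count of reads per gene made by HTSeq 0.12.4 without strand, so reads shared with an overlapping gene cannot be assigned by strand (8% of Sirt2 exon bases overlap Gm19897 and 4.38% of Sirt3 exon bases overlap Ric8a). For ATAC-seq, the authors aligned with Bowtie2 2.3.5.1 and deposited peaks called by MACS2 in each library, with fold enrichment and −log10 q values. These versions are stated for the untreated series.

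Counts were tested with edgeR 4.0.16 (R 4.3.3, TMM scaling, quasi-likelihood test) over all genes of a comparison, with Benjamini-Hochberg adjustment over all of them, and checked on simulated data. CPM shown are TMM-scaled over the 38 libraries. Reads that matched no gene were left out, and they made up 6.0% to 19.5% of these reads and the gene reads together. No pair of replicates agreed within sampling noise (54 pairs). Peaks within 1000 bases of a RefSeq start were read from GRCm38.p6, whose gene models matched 24847 of the 24984 genes.

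The members and gene lists were chosen with earlier results of these data known, the fibroblast comparisons were added after the data were seen, and list genes named are those with the lowest p among calls by a fixed rule. In young liver against young kidney, same-numbered libraries deviated together (r of 0.118, 0.230, 0.104 and 0.463), so the numbers may pair them by the data, though no label says so. The fit with replicate number as a block called 6 members there, as did the fit without it. Alternatives were DESeq2 1.42.0, other size factors and filters, the block, a correction for length and GC content, and leaving out each library. The depth of the peak files is unknown.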

Additional observations from a re-analysis of the deposited data

Results flagged for a closer look

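In 6 of 80 sets of libraries, each 1 member in 1 group of 4, a single library lay far from the other 3, where chance gives about 1 in 20. Sirt1 was at 18.71 CPM in old kidney replicate 2, the library with hepatocyte transcripts, and at 11.19 to 12.37 CPM in the other old kidneys. Sirt3 was at 117.4 CPM in 3C liver replicate 1 against 93.59 to 97.52 CPM. Sirt5 was at 26.24 CPM in young liver replicate 1 against 16.35 to 17.46 CPM. Sirt6 was at 13.51 CPM in 3C kidney replicate 3 against 9.309 to 9.723 CPM. Sirt7 was at 82.25 CPM in 3C liver replicate 2 against 65.23 to 67.97 CPM. Nampt was at 119.6 CPM in 3C kidney replicate 1 against 85.75 to 88.09 CPM. The fibroblast groups of 3 were not examined in this way.

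The age effect of Tiparp differed between liver and kidney by 1.39 on the log2 scale (edgeR adjusted p = 0.0412).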

How the results depend on the processing

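Of 1660 values of a member under an alternative, 1619 counted as kept, 13 lost a call, 17 gained one, 8 moved and 3 reversed. Kept values stayed on their side of the threshold, and an uncalled one could change sign if its shift was within its SE. Moved values were uncalled and changed sign by a larger shift. In old against young kidney the number of members called was 0, but 1 with DESeq2 (Nampt), 4 with the length and GC trend taken out, and 0 to 2 when single libraries were left out. In old against young liver it was 0 to 1 when single libraries were left out. The 3 reversed values all came from taking out the length and GC trend, with Sirt7 at 0.0 and Parp1 at 0.546 in fibroblasts against kidney and Cd38 at 0.089 in fibroblasts against liver, and the cause was not tested. That correction moved the median of all genes from -0.127 to 0.435 and from -0.022 to 0.35 in these comparisons. In old against young kidney it moved that median from 0.021 to -0.103.

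With the replicate block, the count of called genes went from 1669 to 1057 in old against young kidney, from 309 to 139 in liver and from 258 to 102 for the difference in age effect. The block changed 1 member call, Nampt in DMSO liver against DMSO kidney (-0.39, adjusted p = 0.0278). Outside young liver against young kidney, same-numbered libraries did not all deviate together.

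The number of genes called over all genes varied by more than 1.5 times in the age and 3C comparisons below, but not between tissues or fibroblasts and organs. Leaving out single libraries gave 833 to 3440 in old kidney, 77 to 588 in old liver, 155 to 588 in 3C fibroblasts, 0 to 29 in 3C kidney and 114 to 456 for the difference in age effect. The balance of directions moved under some settings. In old against young kidney 1182 genes were higher and 487 lower in edgeR, 1157 and 622 with RLE size factors alone, 1708 and 1356 in DESeq2, 1253 and 2289 with the length and GC trend taken out, and 1670 and 1770 without old kidney replicate 2. In fibroblasts against kidney 5920 were higher and 6944 lower, and 8156 and 5101 with that trend taken out. The other settings reached 3542, 882, 1064, 221 and 736, and 7 in 3C liver. With 3 ATAC-seq libraries against 3, the exact permutation test could give no p under 0.1.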
